A study of Drosophila melanogaster with 4 samples.

Results

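The H3K27me3 peak lists of Cut knockdown and control neuroblast nuclei from Drosophila melanogaster embryos were compared across all protein-coding genes and the space between them. The libraries labelled for H3K27me3 were taken, 2 of the 4 in the series, and every protein-coding gene on 6 chromosome arms entered (13922 genes). Both genotypes carried wor-gal4 and UAS-dsRed, by which neuroblast nuclei were sorted; the knockdown was of Cut, the homeodomain factor encoded by ct, by RNA interference, and the labels say no more of the control than its name. Embryos had been collected over 16 h at 25 °C, so the nuclei came from embryos of mixed age. The sorted nuclei were 0.5 to 3% of embryonic nuclei and at least 50% pure, per the labels, so other cells may make up much of the rest. The same antibody catalogue number is given there for H3K27me3 and H3K27ac. Each genotype had 1 library. No difference below therefore has a replicate check or a p-value, and the intervals given cover counting error only.

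Polycomb repressive complex 2 places H3K27me3 through its methyltransferase E(z), and Polycomb repressive complex 1 binds the mark. In flies the mark is best known for broad domains over developmental regulators such as Hox genes, which it keeps silent outside their own segment. Transcribed genes usually carry H3K27ac at their promoters instead, on the same lysine, which cannot hold both groups at once on a given histone tail.

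As a check of the sorted cell type, H3K27ac peaks were looked up on marker genes and within 500 bp of them. In the control, 10 of 11 neuroblast markers had such a peak, and in the knockdown 11 of 11, beside 80.1 and 76.9% of all genes. The markers of other cells had it too: 8 of 8 neuron, 7 of 7 glia, 7 of 7 muscle and 6 of 6 epidermis and trachea markers in both genotypes, and 6 of 6 and 4 of 6 gut, blood and fat markers. An H3K27ac peak near the gene thus did not set neuroblasts apart from other cell types in these nuclei. Whether the share of other cells differed between the genotypes was not tested.

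The knockdown list was the longer in almost every part of the genome. It held 18692 peaks over 19.5 Mb, the control list 4238 peaks over 4.68 Mb. The knockdown list held more peaks, which were not wider at the median. Median widths were 754 bp in the knockdown and 815.5 bp in the control. Peaks of at least 2 kb were 10.6% (95% exact Clopper-Pearson interval 10.2 to 11.1%) and 11.4% (10.4 to 12.4%) of the lists. The widest peaks were 46.3 kb in the knockdown and 19.7 kb in the control. A median over the longer list does not show whether places with a control peak widened. Of 1335 windows of 100 kb, 1300 held more covered bases in the knockdown list, 32 held fewer, and 3 held none in either. Peak lists hold no read counts, so sequencing depth and the efficiency of immunoprecipitation cannot be told apart from the genotype in these totals. How each list was spread over genes is described below beside its total for that reason.

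Most knockdown peaks lay away from control peaks, whereas nearly every control peak had a knockdown peak in its neighbourhood. The median distance from a knockdown peak to the nearest control peak was 13.5 kb, and 30.8% of knockdown peaks lay within 5 kb of a control peak. In the other direction, 88.9% of the control peaks lay within 5 kb of a knockdown peak, although only 59.7% overlapped it. With a longer list, neighbours are also met more often by position alone. Median gaps between peaks were 3.29 kb in the knockdown list and 9.78 kb in the control list. How much of the asymmetry follows from this was not tested.

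The 2 lists were spread differently between genes and intergenic space. In the control, H3K27me3 covered 2.46% of the bases of protein-coding genes and 5.14% of intergenic bases, which lie in no gene of any kind. In the knockdown it covered 14.9% of gene bases and 13.3% of intergenic bases. The cover of genes was thus 6.05 times as long in the knockdown list, that of intergenic space 2.59 times. Put as a share of each list, 47.2% of the control cover and 68.7% of the knockdown cover lay in protein-coding genes, and 43.5 and 27.1% in intergenic space.

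The same shift was seen by peak. In the control, 45.2% of peaks (43.7 to 46.7%) touched no protein-coding gene, in the knockdown 24.6% (24.0 to 25.2%). Peaks that lay wholly inside 1 gene, without holding another gene whole, were 47.3% (45.8 to 48.8%) of the control and 63.1% (62.4 to 63.8%) of the knockdown list. Peaks that crossed the edge of the genes they touched made up 7.46% (6.68 to 8.29%) and 12.2% (11.8 to 12.7%). Peaks that touched at least 2 genes were 5.55% (4.88 to 6.28%) of control and 11.8% (11.3 to 12.3%) of knockdown peaks.

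**Figure D1:**
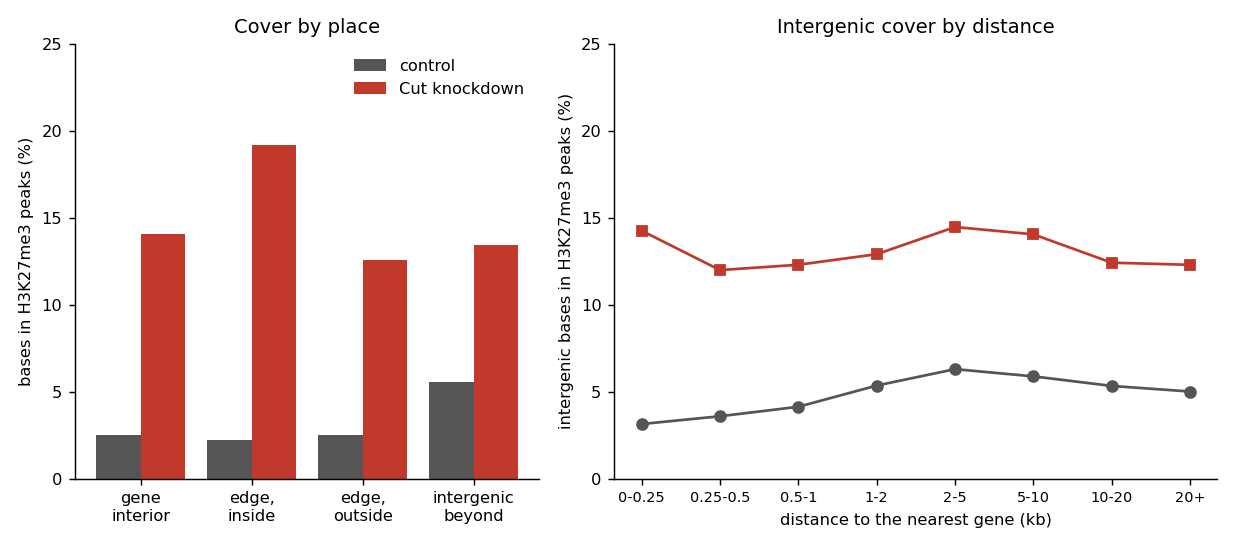
Share of bases in H3K27me3 peaks (percent, vertical axes) in the control (grey) and the Cut knockdown (red), 1 library each. On the left, bars for gene interiors, the 500 bp inside and outside the edges of protein-coding genes, and intergenic space beyond them; on the right, intergenic bases by distance to the nearest gene in kb. The control is lowest within the edges and highest in intergenic space, and the knockdown is highest just inside the edges at 19.2%.

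Within intergenic space the control and knockdown lists differed least far from genes. In the control, cover was 3.14% within 250 bp of a gene, 6.30% at 2 to 5 kb and 5.01% beyond 20 kb. In the knockdown it was 14.3, 14.5 and 12.3% at the same distances. The ratio of knockdown to control cover was 4.54 within 250 bp of a gene and between 2.30 and 2.45 in each distance class from 2 kb outward. Short intergenic spaces followed the genes beside them, with a ratio of 5.65 for the 6308 spaces under 0.5 kb and 2.43 for the 388 spaces of 20 kb and over.

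The largest intergenic gains lay near centromeres. The space between 2S ribosomal RNA and mir-10404-5 genes of the ribosomal DNA on X (X:23291730-23538214) had 30.1 kb covered in control nuclei and 96.7 kb in the knockdown. On 3L, the space between CG42598 and CG40228 (3L:26371357-27082090) had 27.04 and 71.55 kb, and that between l(3)80Fg and CR41320 (3L:26014113-26165234) had 3.37 and 33.2 kb. Between CG41099 and CG42402 (3R:3868402-4077938) the values were 6.12 and 27.6 kb. These places are rich in repeats, where the placing of short reads is uncertain, and the authors' handling of reads with several matches is not given in the sources used here. Among losses, the space above grim, a cell death activator gene, up to lncRNA:CR46353 (3L:18304418-18323583) had 8.10 kb in control nuclei and 3.12 kb in the knockdown. The space between lncRNA:CR44487 and lncRNA:CR44488 (2L:18404601-18433458) had 4.44 kb in control nuclei and none in the knockdown. Of all 12181 intergenic spaces, 3371 had more covered bases in the knockdown list and 402 had fewer.

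Gene-dense regions differed most between the genotypes. In 100 kb windows without a protein-coding gene midpoint, cover averaged 5.73 kb in control nuclei and 11.2 kb in the knockdown, a ratio of 1.96. In windows with 20 genes or more it averaged 2.45 and 18.5 kb, a ratio of 7.55. Control cover was thus highest where genes were absent and knockdown cover where they were dense, with the classes between in order for the control and, from 1 gene upward, for the knockdown. Each of the 675 windows with at least 10 genes had more cover in the knockdown list.

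**Figure D2:**
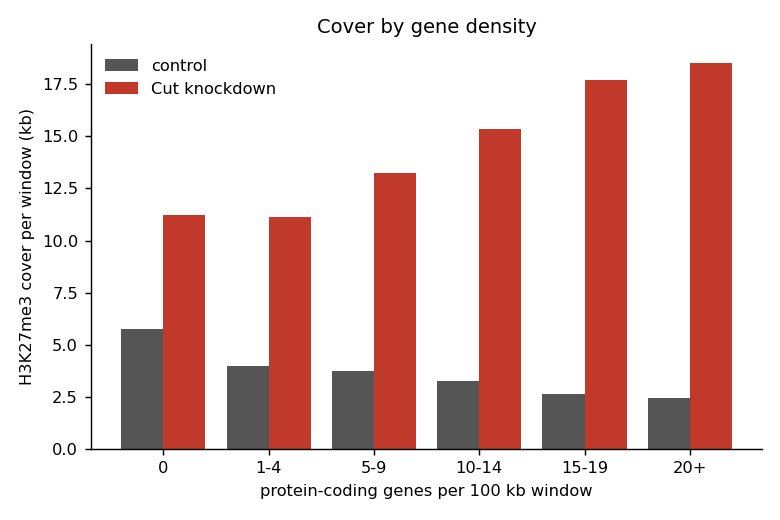
Mean H3K27me3 cover per 100 kb window (kb, vertical axis) by the number of protein-coding genes whose midpoint lies in the window (horizontal axis), control in grey and Cut knockdown in red. Control cover goes down from 5.73 kb without genes to 2.45 kb with 20 genes or more, and knockdown cover goes up from 11.2 to 18.5 kb.

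Along gene bodies, cover was lower at the edges than inside in both lists when genes were averaged with equal weight. The gene table gives no strand, so the lower and the higher coordinate edge stand for an unknown mix of starts and ends. In the 7406 genes of at least 2 kb, each split into 10 equal parts, the part at the lower coordinate averaged 1.68% in control nuclei and 17.6% in the knockdown. Part 3 from there averaged 1.91 and 21.4%, and the part at the higher coordinate 1.55 and 17.3%. Windows of 500 bp on either side of the lower edge of all genes were covered over 2.40% in control nuclei and 18.0% in the knockdown, and those at the higher edge over 2.28 and 17.9%. The 2 edges thus had nearly the same cover, as a mix of strands would give. The knockdown was higher by 15.6 points at either edge, by 11.7 points in gene interiors and by 8.19 points in intergenic space. This order did not hold with stricter peaks. With a -log10 q of at least 2, intergenic space was highest at 4.77 points, the lower and higher edges had 4.35 and 4.23, and interiors 3.46. At a fold of 2 or more, the edges had 4.60 and 4.52 points, intergenic space 4.24 and interiors 3.63. Interiors here are the bases more than 500 bp from the edges of genes longer than 1 kb, and long genes weigh most in them.

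Genes with H3K27ac at 1 edge in the control showed where, at gene edges, the knockdown cover lay. Of 13922 genes, 5062 had a control H3K27ac peak within 500 bp of exactly 1 edge, and 1986 of these were at least 4 kb long. At the acetylated edge, knockdown H3K27me3 covered 26.4% over the 500 bp outside the gene and 30.1% over the 500 bp inside. It covered 19.4% at 2.5 to 3 kb outside and 19.1% at 1.5 to 2 kb inside. At the opposite edge of the same genes it covered 4.93% outside and 5.09% inside, against 18.4 and 19.8% at the outer and inner distances. The knockdown profile thus had a crest at the acetylated edge and a trough at the other. In the control the profile was shallow in points, with 2.20 and 3.05% beside the acetylated edge and 1.19 and 0.951% beside the other. At the outer and inner distances from that other edge the control had 2.35 and 2.05%, so it too had a trough there. The acetylated edge was chosen for its H3K27ac peak and the opposite edge for its lack of one. Neither the crest nor the trough, in either list, is thus independent of how the edges were chosen. The acetylated edge is often the promoter in active genes, but which edge was the start was not known here.

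**Figure D3:**
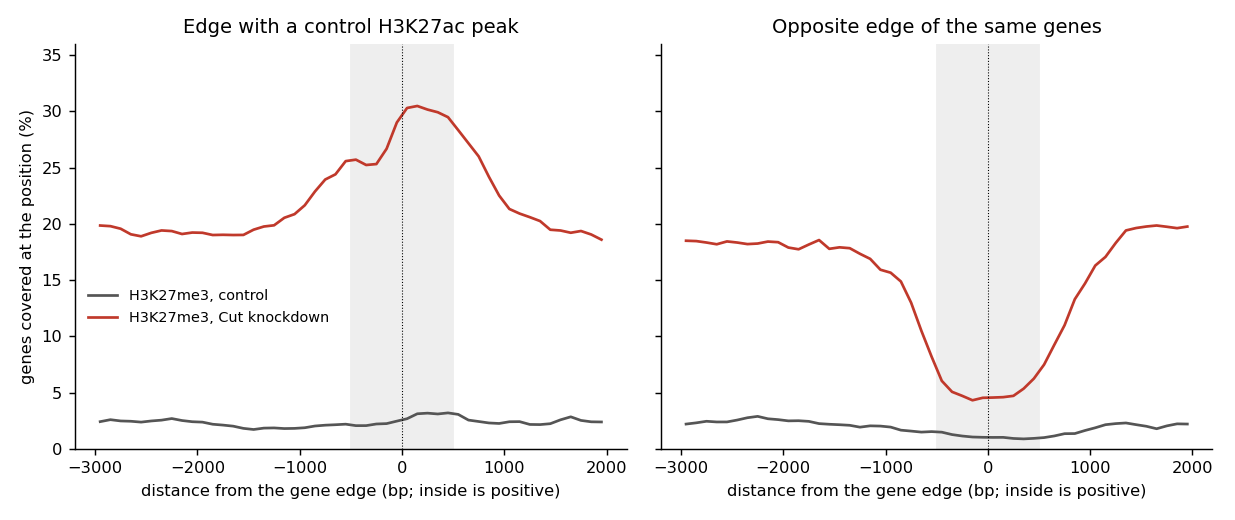
Share of 1986 genes covered by H3K27me3 (percent, vertical axis) in 100 bp steps around a gene edge (horizontal axis in bp, positive inside the gene), control in grey and Cut knockdown in red, with the shaded band marking the 500 bp used to choose the edges. Left, the edge with a control H3K27ac peak, where the knockdown reaches 30.5%; right, the opposite edge, where it goes down to 4.31%.

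Gene length set the lists apart in a second way. By bases, control cover was 5.001% in genes under 1 kb, between 1.57 and 1.94% in the classes from 1 to 10 kb, 3.11% at 20 to 50 kb and 2.30% at 50 kb and over. Knockdown cover was 21.7% under 1 kb, 23.9% at 1 to 2 kb, 22.9% at 2 to 5 kb, 19.1% at 5 to 10 kb, 16.4% at 10 to 20 kb, 12.95% at 20 to 50 kb and 9.06% at 50 kb and over. From 1 to 2 kb upward, knockdown cover thus went down with each length class, while the control had its lowest values at middle lengths. The ratio of knockdown to control was 12.3, 13.95 and 12.1 in the 3 classes from 1 to 10 kb, and 4.34, 4.16 and 3.95 in genes under 1 kb, of 20 to 50 kb and of 50 kb and over.

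Nearly all long genes had some knockdown cover, spread over several peaks. Of 307 genes of 50 kb and over, 303 had an H3K27me3 peak in the knockdown and 217 in the control, with a median of 8 peaks and 1 peak per gene. Of 2676 genes under 1 kb, 912 and 212 had a peak. Per 10 kb of gene, the knockdown list had 1.03 peaks in genes of 50 kb and over and 2.69 in genes of 2 to 5 kb, the control list 0.268 and 0.198. Over all genes, 8305 had more covered bases in the knockdown list (59.7% of genes tested), 374 had fewer (2.69%), and 5170 had none in either list. More cover in the knockdown was found for 30.3% of genes under 1 kb, 67.1% of genes of 2 to 5 kb and 96.1% of genes of 50 kb and over, and a long gene meets this more readily because it offers more bases.

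Cover of at least 50% of the body was found only in the knockdown list for 1930 genes, 13.9% of all (13.3 to 14.4%), and only in the control list for 62 genes, 0.445% (0.342 to 0.571%). By length, the share of knockdown-only genes was 17.6% (16.2 to 19.1%) under 1 kb, 20.2% (18.97 to 21.5%) at 1 to 2 kb, 14.04% (12.97 to 15.2%) at 2 to 5 kb, and 1.303% (0.356 to 3.30%) at 50 kb and over. Control-only genes were short: 35 were under 1 kb, 22 were of 1 to 2 kb, 4 of 2 to 5 kb and 1 of 5 to 10 kb.

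Part of the high control cover of the shortest genes lay in the histone gene cluster (2L:21416953-21541681), picked out after its values were seen. Of its 111 annotated replication-dependent histone genes, 89 were covered over at least 50% in control nuclei and 110 in the knockdown, with mean covered shares of 79.1 and 96.4%. Without them, genes under 1 kb had 3.12% of bases covered in control nuclei and 19.8% in the knockdown, a ratio of 6.35. The repeat units of this cluster are near-identical, so its values are uncertain.

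**Figure D4:**
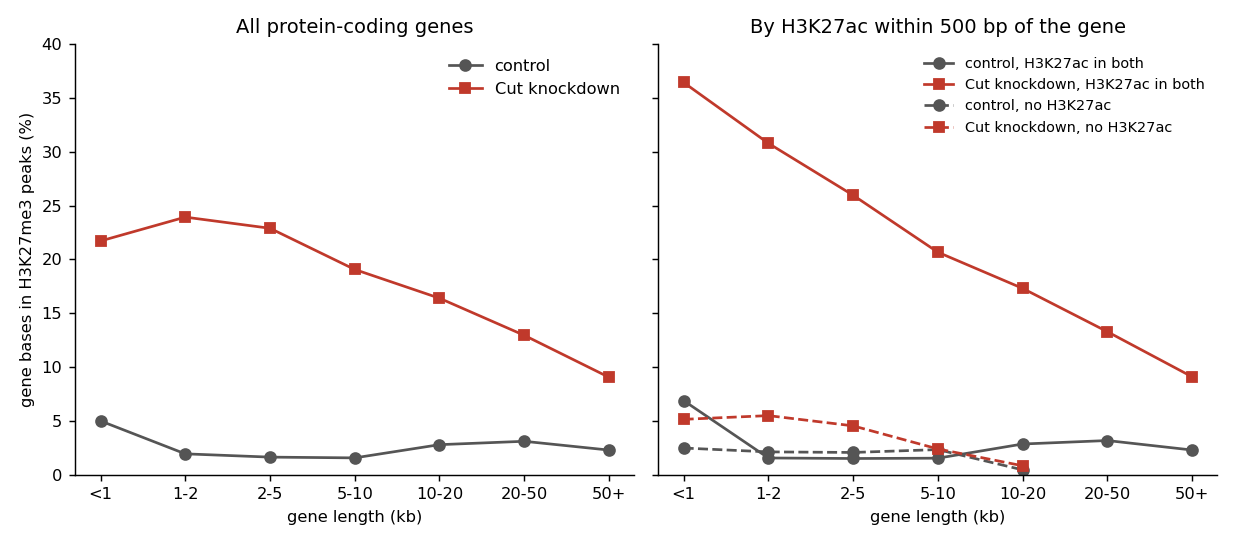
Share of gene bases in H3K27me3 peaks (percent, vertical axes) by gene length class in kb (horizontal axes), control in grey and Cut knockdown in red. Left, all protein-coding genes; right, genes with an H3K27ac peak within 500 bp in both genotypes (solid lines) and in neither (dashed lines, shown up to 20 kb, above which there are 5 such genes). The knockdown line goes down with length among acetylated genes, from 36.4 to 9.10%, and stays under 6% in genes without H3K27ac.

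The knockdown gain differed by whether a gene had H3K27ac. Among the 9702 genes with an H3K27ac peak on them or within 500 bp in both genotypes, mean H3K27me3 cover of the body was 2.64% in control nuclei and 25.9% in the knockdown. Among the 1774 genes with none in either, it was 2.22 and 5.03%. The control means were thus close and the knockdown means apart. Genes with H3K27ac in the control only had 3.91 and 17.0%, and those with it in the knockdown only 2.07 and 14.1%. The contrast held within length classes: at 1 to 2 kb, cover by bases was 1.56 and 30.8% in genes acetylated in both genotypes and 2.13 and 5.49% in genes acetylated in neither. Without peaks that overlapped H3K27ac, the lists held 1.51 Mb in the control, of 4.68 Mb, and 1.99 Mb in the knockdown, of 19.5 Mb. Most H3K27me3 cover thus lay in peaks that overlapped H3K27ac, and more so in the knockdown. The labels give both marks the same antibody catalogue number, and how far the signal named H3K27me3 here holds H3K27ac was not tested, which bears on every contrast by H3K27ac. In this setting, cover over all genes was 0.784% in control nuclei and 1.22% in the knockdown, and the length classes of the knockdown lay between 1.01 and 1.44%. A gene without H3K27ac had 50% of its body covered only in the knockdown in 62 of 1774 cases (3.49%, 2.69 to 4.46%), and a gene acetylated in both genotypes in 1593 of 9702 (16.4%, 15.7 to 17.2%).

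By arm, the ratio of knockdown to control cover of gene bases ran from 1.502 on arm 4 to 9.26 on X. X genes had the lowest control cover, 0.998%, against 2.13 to 3.36% on 2L, 2R, 3L and 3R, and in the knockdown 9.24% against 15.2 to 17.7%. Arm 4, which is largely heterochromatic, had 2.20 and 3.31%, and none of its 80 genes had 50% of the body covered in only 1 list.

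From each length class, the genes with the largest differences were taken among those that carry a symbol and not a CG number alone. Among the shortest, Mrm2, a ribosomal RNA methyltransferase gene of mitochondria (3R:19861610-19862600), and RpL34b, a ribosomal protein gene (3R:9400237-9401226), were covered from edge to edge in the knockdown, 0.991 and 0.990 kb, and not at all in the control. So were spict, which acts in BMP receptor traffic (1.96 kb), and the pair-rule gene ftz (1.92 kb; 3R:6864324-6866244), which encodes a homeodomain factor. SF1, a splicing factor gene of 4.73 kb, had none in control nuclei and 4.58 kb in the knockdown, and the fatty acid transport gene Fatp3, of 4.015 kb, had none and 3.93 kb. These 6 genes thus had no called mark in 1 list and nearly the whole body covered in the other. All 6 had H3K27ac in both genotypes, as did 9702 of all 13922 genes.

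Longer genes with the largest gains included developmental regulators. The zinc finger gene peb, also called hindsight, had no control cover and 5.93 kb in the knockdown, 61.5% of its body, and pns had none and 5.82 kb. The ligand gene hh, of the Hedgehog pathway (3R:23128169-23141906), had 2.55 kb in the control, all of which was kept, and 13.2 kb in the knockdown, 96.3% of its body. For mask, which encodes an ankyrin repeat protein, the values were none and 9.58 kb. For tara they were 1.18 and 16.7 kb, with none of the control cover kept, and for grh, a late temporal factor of neuroblasts, 3.89 and 17.5 kb. The widest gains in kb lay in Myo81F, a myosin gene of 1966 kb in pericentromeric 3R, with 73.5 and 127 kb, of which 8.92 kb were shared, and in the tyrosine phosphatase gene Ptp61F, with 4.62 and 47.3 kb, of which 3.12 kb were shared. The targeted gene ct (X:7608428-7678859) had 2.49 and 5.36 kb, of which 0.556 kb were shared. The peak files do not measure its transcript.

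Among genes chosen by the same rule, the largest loss was smaller than the largest gain in each of the 7 length classes. Trmt112, a methyltransferase subunit gene of 0.845 kb (3L:21215995-21216839), was covered whole in control nuclei and not in the knockdown. Ugt49B2, a glycosyltransferase gene, had 1.63 and 0.376 kb. For nan, a channel gene of hearing, the values were 3.18 and 2.09 kb, and for the mucin gene Muc68E 3.98 kb and none. The transglutaminase gene Tg had 2.43 and 0.474 kb, the histone H3 kinase gene Haspin 4.54 and 0.971 kb, and the muscle gene bt on arm 4 had 1.91 and 0.398 kb. For Tg and bt none of the control cover lay under a knockdown peak, so what the knockdown had there lay elsewhere in the gene. The 62 genes covered over at least 50% only in the control held 40 that are named by a CG number alone. With symbols, and named after their values were seen, they included the insulin-like peptide genes Ilp2 (0.394 kb) and Ilp4 (0.491 kb), which lie in the same cluster, the immune gene edin (0.356 kb), and the odorant receptor gene Or45b (1.18 kb). Of these 4, only Or45b had knockdown cover (0.543 kb). Of the 62, 21 had no H3K27ac peak in either genotype, beside 1774 of all 13922 genes.

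Gene classes were then compared by the mean covered share of the gene body, beside 2.68% in control nuclei and 21.5% in the knockdown over all genes. The classes share members, such as repo (homeodomain and glial), tll (nuclear receptor and neuroblast) and tin (homeodomain and mesoderm). Their means are thus not independent. In the control, homeodomain factors and T-box, forkhead and nuclear receptor factors had the highest means of the 26 classes. Glial genes (9.83%) and basic helix-loop-helix factors followed, both with a control median of 0. The 70 homeodomain factors averaged 34.7%, the 40 T-box, forkhead and nuclear receptor factors 17.5%, and the 35 basic helix-loop-helix factors 9.69%. In the knockdown they averaged 60.9, 50.6 and 44.7%. Of the homeodomain factors, 21 had at least 50% of the body covered in both lists, 26 only in the knockdown (13.9% over all genes) and none only in the control (0.445%). Of the others, 15 of 40 and 14 of 35 passed that bound only in the knockdown.

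Several of these regulators were covered nearly whole already in the control, and bap, tin and ind were named after their values were seen. The mesodermal homeodomain genes bap and tin had 1.57 and 2.89 kb there and 1.57 and 2.99 kb in the knockdown, and the neuroectodermal gene ind had 1.13 kb in both. By the rule of largest change, Antp, a Hox gene, had 21.7 and 53.3 kb, and otp had 12.2 and 10.6 kb, the largest loss among the homeodomain genes. The mesoderm regulator twi had 1.75 and 17.2 kb over a span of 63.0 kb, and Fer3 had 0.806 and 0.703 kb. The T-box gene bi had 8.67 and 20.7 kb and the nuclear receptor gene knrl 3.21 and 2.68 kb. Genes chosen after their values were seen, such as Doc2 (1.97 and 6.56 kb) and slp1 (0.418 and 1.43 kb), were covered in part in control nuclei and from edge to edge in the knockdown.

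Housekeeping classes had control peaks on few genes, between 0 and 4 in each class, and a share near or above that of all genes in the knockdown. None of the 73 mitochondrial ribosomal protein genes had a control peak, beside 11.0% of all genes, and 46 (63.0%) had a knockdown peak, beside 61.6%. Their mean covered share in the knockdown was 42.7%. In 30 of the 73 at least 50% of the body was covered only in the knockdown. Cytoplasmic ribosomal protein genes (92) averaged 0.305 and 28.9%, proteasome subunit genes (48) 1.56 and 29.7%, oxidative phosphorylation genes (81) 3.08 and 29.1%, and translation factor genes (54) 0.0613 and 21.6%. Knockdown-only genes at the 50% bound were 20 of 92, 14 of 48, 19 of 81 and 9 of 54, beside 13.9% of all genes. Most of these genes are short, with medians from 0.909 kb for the mitochondrial to 1.97 kb for the translation class, and genes of 1 to 2 kb averaged 24.0% in the knockdown. The largest gains were 1.83 kb at RpL3, 1.56 kb at mRpS9, 2.11 kb at Rpn8, a lid subunit of the proteasome, 5.30 kb at ND-15, which has a long annotated span, and 3.12 kb at eIF2A, covered whole. RpL21 had 0.215 kb and COX6CL 0.285 kb in the control, and neither had knockdown cover.

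Genes that act in chromatin and the cell cycle had low control cover and knockdown means on either side of that of all genes. Polycomb group genes (22) averaged 1.67 and 31.7%, with jing, the gene of a cofactor of the E(z) complex, at 2.16 and 27.9 kb. Trithorax group and acetylation genes (20) averaged 0.270 and 21.2%, with the remodeller gene kis at none and 8.55 kb. Cell cycle genes (32) averaged 0.394 and 19.7%, with E2f1 at 2.35 and 6.13 kb. The 13 cut and cohesin genes, a list that also held Bap111 of a chromatin remodelling complex, averaged 0.272 and 21.1%. Of them, 12 (92.3%, beside 59.7% of all genes) had more cover in the knockdown. Their median length was 4.44 kb, and more cover was found for 67.1% of genes of 2 to 5 kb. Only ct among the 13 had a control peak. SMC3 and SA1 were named after their values were seen. SMC3, which encodes a ring subunit of cohesin, had 1.62 kb in the knockdown, and SA1 had none in either list.

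Classes tied to differentiated or sensory functions had the lowest knockdown cover. Chemosensory receptor genes (179) averaged 2.06 and 8.51%, and 112 (62.6%, beside 37.1% of all genes) had no cover in either list. Dpr, DIP, beat and side genes (54), which encode cell surface proteins of synaptic partner choice, averaged 2.69 and 9.13%. Male accessory gland and testis genes (65) averaged 2.23 and 11.7%, cytochrome P450 genes (85) 1.51 and 12.1%, odorant binding protein genes (51) 4.23 and 13.1%, and pan-neuronal and synaptic genes (40) 1.96 and 13.3%. All 6 classes were below the mean of all genes in the knockdown. The P450 list, picked by symbol, also held the cyclophilin genes Cyp1 and Cyp40, and the accessory gland list the cuticle genes Acp1 and Acp65Aa. The surface protein and neuronal genes are long, with medians of 36.2 and 34.6 kb, and genes of 20 to 50 kb averaged 13.3%. The receptor genes are not, with a median of 1.69 kb. Among members, Ir41a had 4.02 and 13.99 kb, side-III 2.66 and 12.8 kb, and Appl, the gene of the fly amyloid precursor-like protein, 1.20 and 14.8 kb. Losses included Gr93c (1.13 kb and none), beat-IIb (2.10 kb and none) and Rdl, a GABA receptor gene (1.47 kb and none). Mst87F had 0.719 and 0.193 kb, Mst85C none and 1.496 kb, Obp83a none and 1.83 kb, Obp73a 0.369 kb and none, Cyp4aa1 none and 2.20 kb, and Cyp6a18 0.620 kb and none.

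Cuticle and digestive enzyme genes were apart from these. The 118 cuticular protein genes averaged 4.96 and 28.0%. At the 50% bound, 29 were knockdown-only (24.6%, beside 13.9% of all) and 3 control-only (2.54%, 0.527 to 7.25%, beside 0.445%). Genes under 1 kb had 17.6% knockdown-only and 1.31% control-only genes at that bound. Cpr50Ca had none and 5.41 kb, and Cpr12A 0.760 kb and none. The 28 digestive serine protease genes averaged 3.37 and 32.7%, and etaTry was covered whole, over 0.911 kb, in the knockdown only. Both classes are short, with medians of 0.97 and 0.923 kb, and genes under 1 kb averaged 5.61 and 21.7%.

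Genes of neural stem cells, signalling and other tissues had knockdown means from 21.5 to 36.4%. The 31 neuroblast genes averaged 7.22 and 36.4%. Of them, 28 (90.3%, beside 59.7% of all genes) had more cover in the knockdown and none had less, beside 2.69%. Their median length was 4.03 kb, and more cover was found for 67.1% of genes of 2 to 5 kb and 92.9% at 20 to 50 kb. That share was 95.0% in Trithorax group genes, 86.4% in Polycomb group genes and 33.0% in chemosensory receptor genes. Of genes named after their values were seen, wor, the driver gene of the sort, had 1.44 kb in the knockdown list. The gene of mira, an adaptor of asymmetric division, had 1.64 kb there. Neither had control cover, and ase, a proneural factor, had none in either list. Secreted ligand genes (36) averaged 6.26 and 28.7%, with a loss at egr (0.378 and 0.234 kb). Notch pathway genes (22) averaged 4.45 and 33.3%, with mam, a coactivator, at 0.764 and 10.8 kb and Brd at 0.315 kb and none. Glial genes (14) averaged 9.83 and 32.8%, with the factor gene pnt at 6.79 and 14.2 kb. Muscle and mesoderm genes (31) averaged 8.10 and 26.8%, with tin and bap, also on the homeodomain list, covered over 96.4 and 100% in the control. Cell death genes (21) averaged 2.81 and 21.5%, with Bruce, an inhibitor of apoptosis gene, at none and 4.52 kb and the activator gene hid at 0.695 and 0.397 kb.

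**Figure D5:**
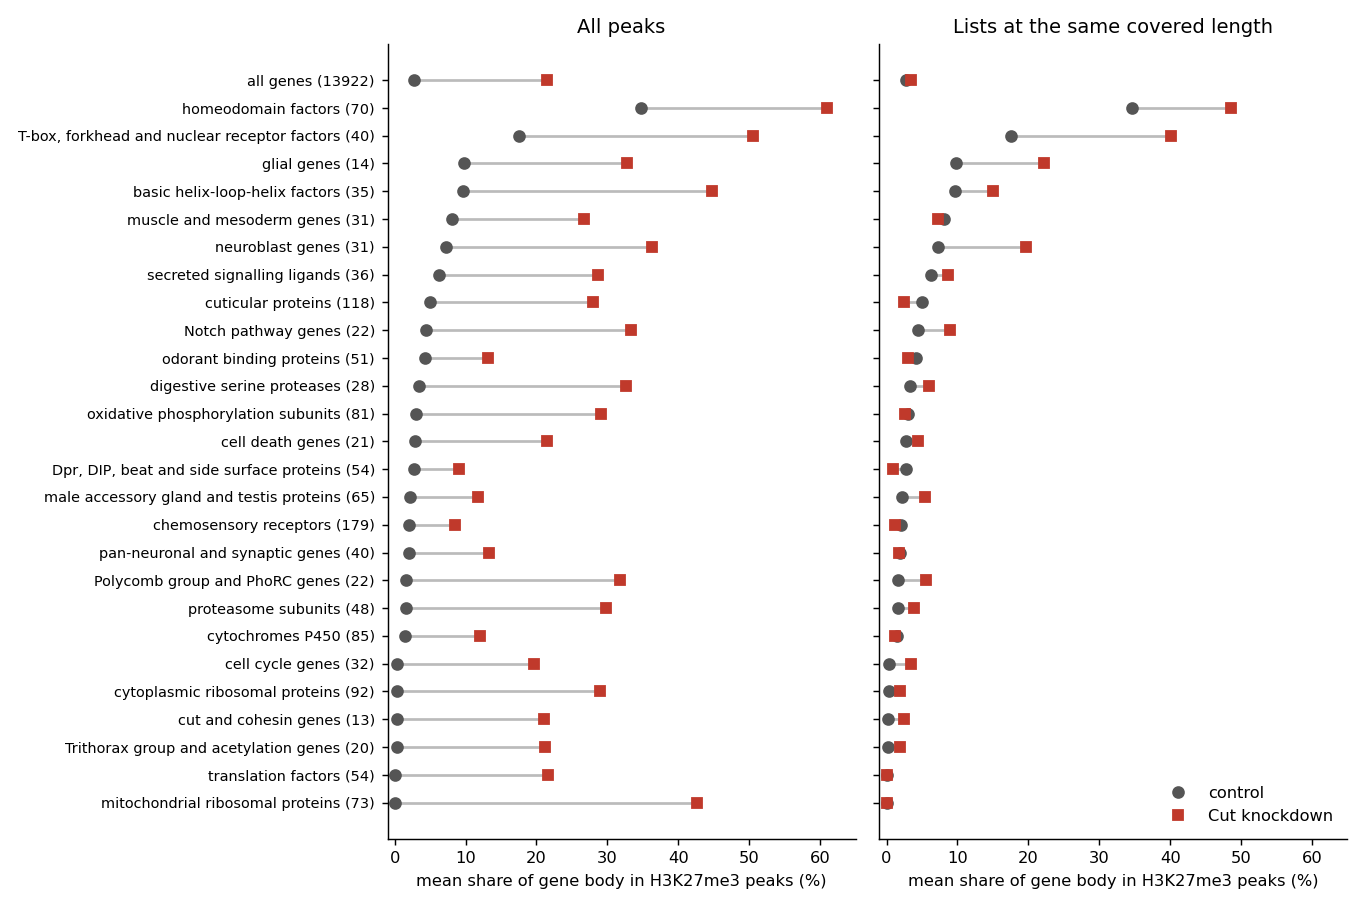
Mean share of the gene body in H3K27me3 peaks (percent, horizontal axes) for 26 gene classes and all genes, with the number of genes in brackets, control as grey circles and Cut knockdown as red squares. Left, all peaks, where every class is higher in the knockdown; right, the knockdown list cut back to as many covered bases as the control has, where transcription factor, glial and neuroblast genes are still higher in the knockdown and 8 classes, among them surface protein, cuticle and chemosensory genes, are lower.

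The classes kept their control cover to different degrees. Over all genes, 50.4% of the control cover lay under a knockdown peak, where the knockdown covered 14.9% of gene bases. Of the control cover in basic helix-loop-helix genes 84.8% was kept, in homeodomain genes 79.4% and in T-box, forkhead and nuclear receptor genes 74.8%, where the knockdown covered 39.0, 47.0 and 26.6% of bases. Of the control cover in chemosensory receptor genes 10.3% was kept, in Dpr, DIP, beat and side genes 18.98% and in pan-neuronal genes 27.4%, where the knockdown covered 9.17, 7.28 and 9.73%. High kept shares were also found in other classes, at 83.6% in glial genes, 81.2% in Polycomb group genes and 77.8% in odorant binding protein genes. The glial control cover lay mostly in transcription factor genes, with 6.79 of 11.1 kb in pnt and 1.35 kb in the homeodomain gene repo. That of Polycomb group genes lay in 3 genes, and 2.61 of the 3.84 kb in odorant binding protein genes lay in Obp99c. In chemosensory receptor genes, Ir41a held 4.02 of 9.97 kb of control cover and 13.99 of 43.8 kb of knockdown cover. Where a class had under 2 kb of control cover in all, the kept share likewise rests on a few peaks. This holds for 100% in digestive serine protease and proteasome genes, 77.3% in Trithorax group genes and 0.225% in translation factor genes. By length, the kept share was 72.6% in genes under 1 kb, histone genes included (54.9% without them), and 31.0% in genes of 50 kb and over.

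Which classes stood out depended on the length of the knockdown list. When the knockdown list was cut back to as many covered bases as the control has, by removing its peaks of lowest -log10 q, the peak caller's adjusted p on a log scale, 3205 peaks remained, each with a value of at least 2.31. Over all genes the mean was then 3.46% in the knockdown, against 2.68% in the control. Homeodomain genes then averaged 48.6% in the knockdown, T-box, forkhead and nuclear receptor genes 40.1%, glial genes 22.2% and neuroblast genes 19.6%. Their control means were 34.7, 17.5, 9.83 and 7.22%. At the 50% bound, 3 of 14 glial and 7 of 31 neuroblast genes were then covered only in the knockdown, beside 223 of 13922 genes. The glial control median was 0, and in the full lists the highest glial shares lay in repo, gcm and gcm2. Mitochondrial ribosomal protein genes had none in either list, translation factor genes 0.108% against 0.0613% in the control, and Dpr, DIP, beat and side genes 0.849% against 2.69%. Cytoplasmic ribosomal protein genes had 1.89% against 0.305% and proteasome genes 3.83% against 1.56%, so some housekeeping classes were still higher in the knockdown, from low control means. Only 5 of 92 and 3 of 48 of these genes then had more cover in the knockdown, beside 1336 of 13922 genes. Oxidative phosphorylation genes went the other way, with 2.67% against 3.08%. Most of the knockdown cover of ribosomal protein genes thus lay under peaks of lower -log10 q. This held over all genes too, where the knockdown mean went from 21.5 to 3.46%. In this setting genes of 1 to 20 kb still had more cover in the knockdown (3.05 against 1.94% at 1 to 2 kb), but genes of 50 kb and over had less (1.56 against 2.30%) and intergenic space had less (4.64 against 5.14%). By H3K27ac, the 9702 acetylated genes averaged 4.10% in the knockdown and the 1774 without it 0.746%, against 2.64 and 2.22% in the control. Without peaks that overlapped H3K27ac, no class mean was above 5.86% in either list, homeodomain genes had 4.78 and 5.13%, and mitochondrial ribosomal protein genes none and 0.278%. Which of these settings stands nearer to the amount of the mark was not tested.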

How the data were processed

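Chromatin was immunoprecipitated for H3K27me3 or H3K27ac from sorted nuclei, cut with 15 U of micrococcal nuclease and sonication, and sequenced beside input, per the labels' protocols. The submitters' processing notes name FastQC, Bowtie2, MACS2 and SICER, without versions or roles, and the genome build dm6; how reads with several matches were treated is not known from these notes. The deposited broad peak lists give coordinates, a display score, a fold over background, and -log10 p and -log10 q values per peak, as the authors' peak caller wrote them; the lowest -log10 q is 1.01 in both lists. They hold no counts, so depth is unknown. The peak scores, folds and -log10 values were used only to filter or rank peaks within a list.

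Peaks were laid on 13922 protein-coding genes of the RefSeq gene table supplied, Release 6 plus ISO1 MT, on 6 arms, with Python 3.11.15, NumPy 2.4.6, pandas 2.3.3, SciPy 1.17.1 and matplotlib 3.10.9. Covered bases were counted per gene, edge window of 500 bp, intergenic space and 100 kb window; a gene was called covered at 50% of its body, and overlap meant at least 1 bp. Shares of peaks or genes carry 95% exact Clopper-Pearson intervals. The counting was tested on simulated peaks. With 1 library a genotype there was no test.

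Genes were named if they carry a symbol and had the largest gains (2) or loss (1) in bp in a length class, or the largest gain or loss in a gene class, with ct as the target; intergenic spaces likewise (4 gains, 2 losses). Any other gene was named after the values were seen. Promoter sequences that the rule also asked for are not shown, because no genome or strand was used here. Dl, calypso and Bearded of the gene lists matched no gene. The gene lists and the genes compared were chosen with earlier results of these data known. Alternatives were stricter peaks, lists at equal covered length, removal of H3K27ac, other windows, bounds and overlaps, and arms without centromere ends.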

Additional observations from a re-analysis of the deposited data

How the results depend on the processing

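The changed values under each alternative are given as points of covered share, knockdown minus control, unless a ratio, a number of genes or a percent of peaks is named. As reported, the ratio was 4.16, knockdown-only and control-only genes 1930 and 62, lower edges 15.6, interiors 11.7, higher edges 15.6, intergenic space 8.19, genes under 1 kb 16.7, genes of 50 kb and over 6.76, and overlapped control and knockdown peaks 59.7 and 13.03%. With peaks of a -log10 q of at least 2, the ratio of covered lengths 4.82, knockdown-only genes 517, control-only genes 14, lower edges 4.35, interiors 3.46, higher edges 4.23, intergenic space 4.77, genes under 1 kb 4.92, genes of 50 kb and over 2.35, overlapped control peaks 64.7% and overlapped knockdown peaks 12.3%. At a peak fold of 2 or more, the ratio of covered lengths 6.37, knockdown-only genes 557, control-only genes 11, lower edges 4.6, interiors 3.63, higher edges 4.52, intergenic space 4.24, genes under 1 kb 4.83, genes of 50 kb and over 2.32 and overlapped knockdown peaks 9.46%. With the lists held at the same covered length, the ratio of covered lengths 0.999, knockdown-only genes 223, control-only genes 108, lower edges 0.922, interiors 0.0200, higher edges 0.877, intergenic space -0.502, genes under 1 kb -0.147, genes of 50 kb and over -0.732, overlapped control peaks 32.3% and overlapped knockdown peaks 37.8%. Without peaks that overlapped H3K27ac, the ratio of covered lengths 1.32, knockdown-only genes 54, control-only genes 27, lower edges 0.473, interiors 0.412, higher edges 0.521, intergenic space 0.192, genes under 1 kb 0.546, genes of 50 kb and over 0.173, overlapped control peaks 27.3% and overlapped knockdown peaks 16.9%. Without bases inside H3K27ac peaks, the ratio of covered lengths 2.4, knockdown-only genes 280, lower edges 4.3, interiors 3.42, higher edges 4.43, intergenic space 3.1, genes under 1 kb 4.2, genes of 50 kb and over 2.09, overlapped control peaks 55.4% and overlapped knockdown peaks 14.5%. Without arm 4 and 1 Mb at the centromere ends, the ratio of covered lengths 4.4, lower edges 15.7, interiors 12.2, higher edges 15.7, intergenic space 8.27 and genes of 50 kb and over 7.19. Without arm 4 and 5 Mb there, an alternative chosen after seeing the data, the ratio of covered lengths 4.76, lower edges 16, interiors 12.8, higher edges 15.9, intergenic space 8.72, genes under 1 kb 17.3 and genes of 50 kb and over 7.78. With a bound of 25% of the body, knockdown-only genes 4223 and control-only genes 114. With a bound of 75% of the body, knockdown-only genes 841 and control-only genes 30. With edge windows of 250 bp, lower edges 14.6, interiors 12.3 and higher edges 14.7. With edge windows of 1000 bp, lower edges 16.8, interiors 10.6 and higher edges 16.6. With at least 50% of a peak overlapped, overlapped control peaks 44.3% and overlapped knockdown peaks 7.51%. The negative values are reversals, and the cause was not tested; the ratio at equal length is near 1 by construction. Joining peaks under 500 bp apart changed nothing, since the smallest gaps were 773 and 894 bp. No replicate could be left out with 1 library a genotype. No paired analysis was possible because each genotype had 1 library and the labels carry no replicate numbers. Depth is unknown, so the difference in list length cannot be told apart from depth or immunoprecipitation.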
